A study of Mus musculus with 61 samples.

Results

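Wild-type stembryos at 144 h after aggregation were profiled in 2 series of libraries, and the genes and tissues that differed between them are described here. Stembryos, also called gastruloids, are grown by aggregating mouse embryonic stem (mES) cells, which receive a pulse of Chiron, an agonist of Wnt signalling, and then elongate like a posterior body axis. One pair of libraries (titles with "rep") stands outside the time course and the other pair (titles with "Time-course_rep") belongs to a time course sampled at 8 stages from 72 h to 168 h. The labels give all 4 libraries the same genotype (wt), cell type and stage, with no other allele and, at this stage, no further agent, and they give no date or batch. These 4 libraries, of 61 in the series, were chosen by their titles and not by a measured value, and the difference is given throughout as outside the time course minus time course. Each library was made from a pool of stembryos, of which, from 108 h on, only elongating ones without signs of apoptosis were collected. In these pooled samples, fewer cells of a type and less RNA per cell cannot be told apart. The labels do not say that the libraries of a pair came from separate cultures, although the methods of the study speak in general of biological replicates. The p-values measure the spread between libraries of a group, taken over all 61 libraries of the series, with mutants and other stages included. Whether that spread covers separate cultures is not known for these 4 libraries.

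The tail bud of the embryo holds neuro-mesodermal progenitors, cells kept by Wnt and FGF signals that give rise both to the spinal cord and, through presomitic mesoderm, to the somites. As the axis grows, Hox genes are switched on in the order of their place in the cluster, from paralogs that mark the head and trunk to the posterior paralogs that mark lumbar, sacral and tail levels. When the progenitors are used up, T, Tbx6 and the Wnt and FGF ligands fall, and the neural tube matures through Pax6, Olig2 and proneural genes into neurons. Stembryos at 144 h also hold endoderm, endothelial and, in some cultures, heart-like cells.

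Of 55052 genes in the table, 12395 had a mean of at least 1 FPKM in either pair and were tested. FPKM are fragments mapped per kilobase of transcript, relative to the depth of the library, and unless stated otherwise every difference is on the log2(FPKM + 0.1) scale, which understates the change of low genes. With limma and an adjusted p under 0.05, 1781 genes (14.4%) were higher and 2009 (16.2%) were lower outside the time course, together 30.6% of the genes tested. With a difference of at least 2-fold as well, 419 genes (3.38%) were higher and 301 (2.43%) lower. Of these, 326 and 251 were above 0 FPKM in all 4 libraries. The libraries of a pair differed by more than 1 on the log2 scale in 278 genes outside the time course and in 252 genes of the time course, against 1047 genes between the means of the pairs. The pairs did not overlap in 76.5% of the genes tested. Scaling every library to the same summed FPKM moved the median log2 difference of all genes from -0.04 to 0.16 and the calls to 2180 higher and 541 lower, so that 80.1% of the calls were higher instead of 47.0%. Differences close to these medians are therefore not firm.

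The inferred depth was 25.4 M and 21.6 M (mega) fragments outside the time course and 17.6 M and 15.0 M in it. Replicate 1 outside the time course listed 25257 genes above 0, against 19022 to 20669 in the other libraries. Among the genes tested, 368 were listed at 0 in at least 1 of the 4 libraries, and 143 of these were called. The 10 largest differences in each direction, among called protein-coding genes of at least 5 FPKM, were all of genes listed at 0 in both libraries of a pair. Mrpl18, a mitochondrial ribosomal protein, was listed at 71.9 and 72.5 FPKM outside the time course and at 0 in both libraries of it, and Dnajc19 at 0 outside and at 53.9 and 64.1 FPKM in the time course. Over the 61 libraries, Mrpl18 was listed at 0 in 46 and Dnajc19 in 38, with medians of 75.5 and 52.7 FPKM in the others. Values of 0 in such housekeeping genes can be failed estimates, and no change is read from them.

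**Figure D1:**
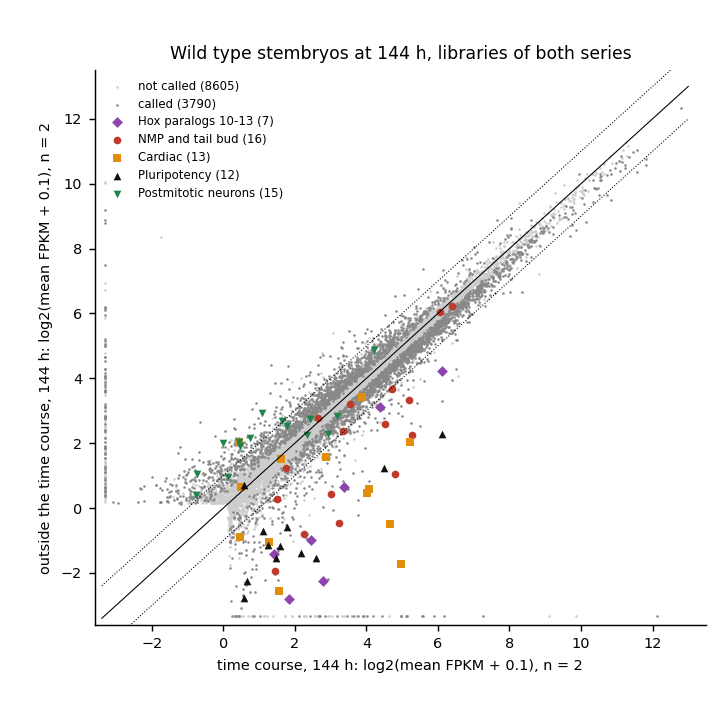
Mean level of each tested gene in the time course (horizontal) and outside it (vertical), as log2(mean FPKM + 0.1), n = 2 libraries each. Dark grey points are the 3790 called genes, the solid line marks equal levels and the dotted lines a difference of 1 on the log2 scale. Posterior Hox, tail bud, cardiac and pluripotency genes lie below the diagonal and neuronal genes mostly above it, and the rows of points at the edges are genes listed at 0 in 1 pair.

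Several posterior Hox genes were lower outside the time course. Of 12 Hox genes of paralogs 10 to 13, 7 passed the filter on low values, and 6 of the 7 were called, all lower. Of the 7, 4 passed only through the time course and so had to be lower, and the count by itself does not support a change of the list. Among the others, Hoxc10 and Hoxd10 were called lower and Hoxa10 was not called. Hoxd11, which marks the lumbo-sacral region, was at 0.125 and 0.0980 FPKM outside the time course and at 6.47 and 7.16 FPKM in it, a log2 difference of -5.03 (SE 0.30, adjusted p = 6.99e-15). Hoxc11 was at 0.0847 and 0 FPKM against 3.87 and 3.01 FPKM (log2 difference -4.69, SE 0.26, adjusted p = 1.04e-15). Hoxa11 was at 0.347 and 0.469 FPKM against 5.52 and 5.20 FPKM (log2 difference -3.44, SE 0.52, adjusted p = 6.60e-06). Hoxd11 and Hoxc11 were thus near the limit of detection outside the time course and Hoxa11 was low there, while all 3 were at several FPKM in the time course. Hoxd13, the most posterior gene of HoxD, was at 0.187 and 0.360 FPKM against 3.25 and 1.92 FPKM (log2 difference -2.84, SE 0.29, adjusted p = 1.08e-08).

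Genes of paralog 10 were expressed in all 4 libraries, at lower levels outside the time course. Hoxc10 was at 15.9 and 21.4 FPKM outside and at 69.9 and 69.7 FPKM in the time course (log2 difference -1.91, SE 0.53, adjusted p = 0.00597). Hoxd10 was at 1.19 and 1.74 FPKM against 10.3 and 10.1 FPKM (log2 difference -2.74, SE 0.45, adjusted p = 2.11e-05). Hoxa10 was at 7.70 and 9.41 FPKM against 19.04 and 22.7 FPKM and was not called (log2 difference -1.28, SE 0.57, adjusted p = 0.0874). The call of Hoxc10 was lost without replicate 1 outside the time course (adjusted p = 0.0625). Of the 5 genes that were not tested, Hoxd12 was at 0.166 and 0 FPKM against 0.529 and 0.336 FPKM, and Hoxa13, Hoxb13, Hoxc12 and Hoxc13 were at 0.317 FPKM or less in all 4 libraries.

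Hox genes of paralogs 5 to 9 differed less than their posterior neighbours. None of the 15 tested was called by limma, where 14.4% and 16.2% of all genes were called higher and lower, and none had an unadjusted p under 0.05. The calls depended on the libraries fitted, with 4 higher and 2 lower when the 4 libraries were fitted alone and 5 higher and 5 lower with the 144 h libraries alone. Their median log2 difference was -0.06, with a range from -0.96 for Hoxd9 to 1.03 for Hoxa6. Hoxb9, which was the most abundant of them, was at 110.6 and 114.8 FPKM outside and at 120.1 and 115.2 FPKM in the time course (log2 difference -0.06, 95% interval -1.23 to 1.11). Hoxd9 was at 8.06 and 10.1 FPKM against 16.9 and 18.5 FPKM (log2 difference -0.96, 95% interval -2.18 to 0.26). The interval of Hoxb9 includes differences of 2-fold in either direction and that of Hoxd9 includes 0, and the median of the list was 0.13 after scaling to equal sums.

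Among the 11 tested genes of paralogs 1 to 4, 3 were higher and 2 lower outside the time course, with a median of -0.04. Of all genes tested, 14.4% were called higher and 16.2% lower, so the count of lower genes was near the general share. Hoxd4 was at 29.2 and 31.8 FPKM against 9.41 and 10.3 FPKM (log2 difference 1.63, SE 0.23, adjusted p = 2.14e-06), and its neighbour Hoxd3 at 16.5 and 17.5 FPKM against 8.12 and 8.87 FPKM (log2 difference 1.00, SE 0.23, adjusted p = 0.000957). Hoxb4 was at 11.3 and 11.1 FPKM against 6.34 and 7.11 FPKM (log2 difference 0.73, SE 0.27, adjusted p = 0.0399), a call that was lost without any 1 of the 4 libraries (adjusted p from 0.0892 to 0.183). The first genes of the HoxD and HoxB clusters went the other way. Hoxd1 was at 2.08 and 1.69 FPKM against 5.98 and 7.202 FPKM (log2 difference -1.75, SE 0.26, adjusted p = 5.82e-06), and Hoxb1 at 17.96 and 18.9 FPKM against 38.6 and 38.1 FPKM (log2 difference -1.05, SE 0.19, adjusted p = 7.27e-05). Within HoxD the genes tested thus ran from lower (Hoxd1) through higher (Hoxd3 and Hoxd4) and uncalled (Hoxd8 and Hoxd9) to lower again (Hoxd10, Hoxd11 and Hoxd13). Shifting the Hoxd genes other than Hoxd13 by the median difference of 16 expressed Hoxa and Hoxc genes, -0.18 on the log2 scale, left every sign as it was, with Hoxd11 at -4.86 and Hoxd4 at 1.80.

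**Figure D2:**
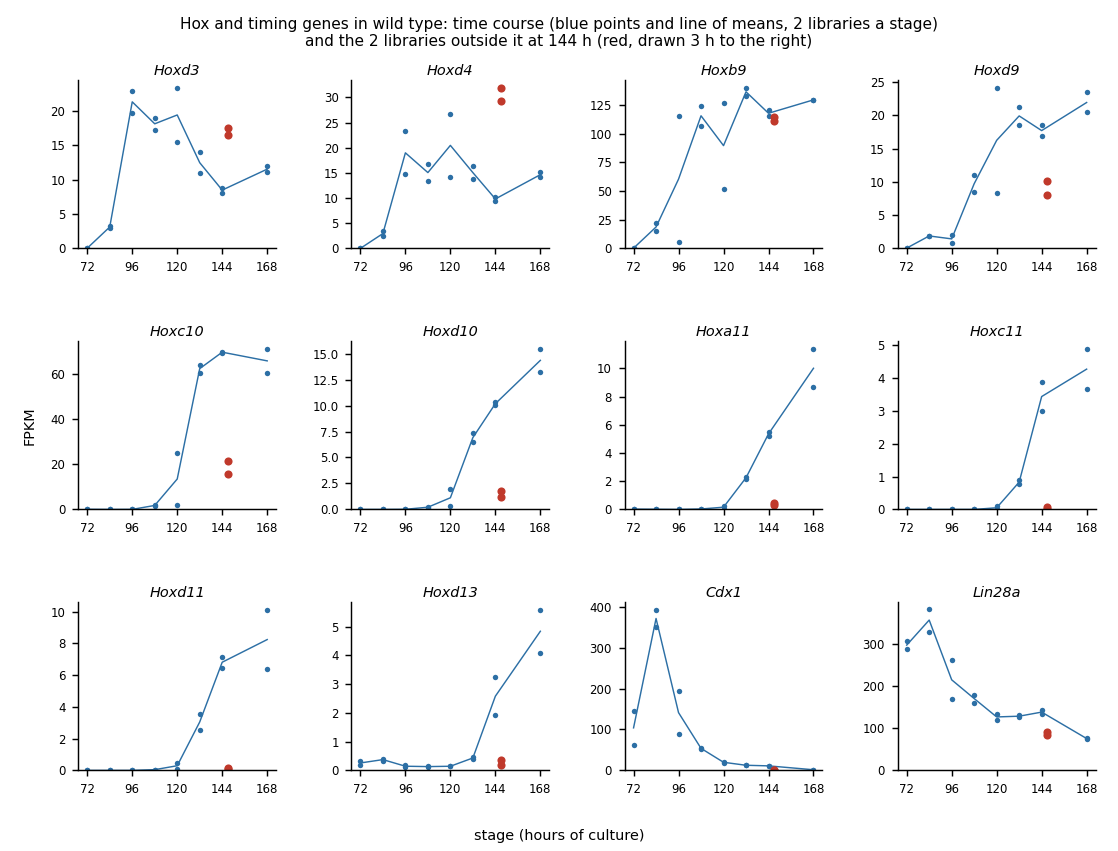
FPKM of 12 Hox and timing genes (one panel each) against stage in hours, with every time-course library as a blue point, the blue line through the means and the 2 libraries outside the time course at 144 h in red. For Hoxc10, Hoxd10, Hoxa11, Hoxc11 and Hoxd11 the red points lie below the time course from 132 h on, for Hoxd4 above all its stages, and for Hoxb9 at its level.

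Genes that time the change from trunk to tail differed as well. Of 14 genes tested, 7 were lower and 2 higher outside the time course, and 5 were lower after scaling to equal sums. Of all genes tested, 16.2% were called lower and 14.4% higher, so the count of higher genes was near the general share. The Cdx factors, which activate central Hox genes in the tail bud, were all lower. Cdx1 was at 1.39 and 1.43 FPKM outside the time course and at 11.6 and 10.52 FPKM in it (log2 difference -2.88, SE 0.30, adjusted p = 1.46e-08). Cdx4 was at 4.85 and 7.199 FPKM against 37.4 and 38.5 FPKM (log2 difference -2.66, SE 0.77, adjusted p = 0.00790), and Cdx2 at 22.2 and 25.3 FPKM against 62.1 and 59.5 FPKM (log2 difference -1.36, SE 0.33, adjusted p = 0.00204).

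Lin28a, an RNA-binding protein that keeps the trunk progenitors, was at 83.9 and 90.6 FPKM against 141.9 and 133.9 FPKM (log2 difference -0.66, SE 0.13, adjusted p = 0.000247), and Sall4 at 17.2 and 17.2 FPKM against 28.5 and 31.8 FPKM (log2 difference -0.80, adjusted p = 3.46e-05). Nr6a1, a nuclear receptor of the trunk program, was slightly higher, at 28.3 and 29.7 FPKM against 22.2 and 21.4 FPKM (log2 difference 0.41, adjusted p = 0.0429), and so was Isl1 (log2 difference 1.60, adjusted p = 0.0120), which also marks motor neurons and the heart field. Gdf11, a ligand of the switch to the tail, was at 19.4 and 19.1 FPKM against 28.1 and 27.7 FPKM and was not called (adjusted p = 0.222), nor were its receptors Tgfbr1 and Acvr2b (log2 differences 0.16 and 0.13) or Lin28b (0.05). The call of Cdx4 was lost without replicate 1 outside the time course (adjusted p = 0.0712) and that of Nr6a1 without any 1 of the 4 libraries (adjusted p from 0.1003 to 0.183). That of Isl1 was lost without replicate 2 of either pair (adjusted p of 0.0751 and 0.0738).

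Several genes of the tail bud and presomitic mesoderm were lower outside the time course. Of 16 genes of neuro-mesodermal progenitors, all tested, 11 were lower and none higher, with a median log2 difference of -1.57. Of the 16, 3 passed the filter only through the time course and so had to be lower, which limits what the count and median show. T (Brachyury) was at 9.69 and 10.1 FPKM against 37.2 and 35.9 FPKM (log2 difference -1.87, SE 0.27, adjusted p = 3.04e-06). Wnt3a, the Wnt ligand that keeps the progenitors, was at 0.4997 and 0.751 FPKM against 8.67 and 10.1 FPKM (log2 difference -3.73, SE 0.36, adjusted p = 2.96e-09). The FGF ligands Fgf17 (1.56 and 2.34 FPKM against 27.8 and 27.3 FPKM) and Fgf8 (5.61 and 6.36 FPKM against 22.2 and 23.9 FPKM) and the progenitor factor Nkx1-2 (4.07 and 5.33 FPKM against 38.8 and 38.6 FPKM) were lower too, by 3.78, 1.93 and 3.03 on the log2 scale. Sox2, shared by the progenitors and the neural tube, was at 69.5 and 63.0 FPKM against 61.2 and 71.2 FPKM, and the pairs overlapped.

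Of 18 genes of presomitic mesoderm and its clock, 16 were tested, and 9 were lower and none higher, with a median of -1.28. Of the 16, 5 passed the filter only through the time course and so had to be lower. Neither the count nor the median by itself supports a change of the list. Tbx6, which commits cells to presomitic mesoderm, was at 0.503 and 1.01 FPKM against 13.9 and 13.1 FPKM (log2 difference -4.06, SE 0.34, adjusted p = 1.11e-10). Msgn1, a target of T and Wnt in the same cells, was listed at 0 in both libraries outside the time course and at 5.39 and 5.19 FPKM in it, at least 17.1-fold lower when 3 fragments in the shallower library are taken as the limit. The clock gene Hes7 was at 0.664 and 1.07 FPKM against 7.77 and 8.89 FPKM (log2 difference -3.15, SE 0.33, adjusted p = 1.38e-08). The Notch ligand Dll3 was lower as well (3.45 and 2.63 FPKM against 10.1 and 10.6 FPKM, log2 difference -1.75), while Dll1, which neural progenitors also express, was at 27.6 and 24.9 FPKM against 23.6 and 24.6 FPKM. Without any 1 of the 4 libraries, 9 or 10 of the progenitor genes and 7 or 8 of the presomitic genes were still called lower.

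Msgn1 and the Wnt target Sp5 (1.24 and 1.27 FPKM outside the time course against 7.43 and 8.58 FPKM, log2 difference -2.58, adjusted p = 8.88e-07) are shown with the 250 bases before their RefSeq start (GRCm38.p6, the build of the mm10 files), since both were lower and both windows hold the core letters of a TCF/LEF site, through which Wnt acts. The window of Msgn1 is chr12:11208949-11209198 on the minus strand and that of Sp5 chr2:70474673-70474922 on the plus strand. The sequences read 5′ to 3′ along the gene, and capitals mark CTTTGA or its reverse complement TCAAAG.
Msgn1: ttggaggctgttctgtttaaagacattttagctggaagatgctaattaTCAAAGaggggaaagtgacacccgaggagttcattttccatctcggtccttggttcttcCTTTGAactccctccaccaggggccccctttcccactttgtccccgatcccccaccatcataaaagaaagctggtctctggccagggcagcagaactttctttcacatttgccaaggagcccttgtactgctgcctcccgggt
Sp5: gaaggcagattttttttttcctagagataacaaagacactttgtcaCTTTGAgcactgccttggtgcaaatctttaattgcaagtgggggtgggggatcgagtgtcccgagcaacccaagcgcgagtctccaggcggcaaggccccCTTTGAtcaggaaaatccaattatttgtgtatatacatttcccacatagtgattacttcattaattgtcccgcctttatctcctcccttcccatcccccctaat
Each window holds 2 matches, whose first bases lie at -202 and -143 from the start of Msgn1 and at -204 and -104 from that of Sp5. Of 32851 RefSeq windows of this length, 13.8% hold these letters on either strand. They were found in at least 1 window of 4 of the 12 progenitor genes with an entry, 1 of 14 presomitic genes and 2 of 14 spinal cord genes. The counts were 2 of 6 for Wnt targets, 1 of 5 for Hox paralogs 10 to 13 and 0 of 10 for neuronal genes. Most genes of each list thus have none in these windows, and the part of these letters in the differences was not tested.

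Targets and feedback genes of the FGF and Wnt pathways were lower as well. Of 11 tested FGF and ERK targets, 10 were lower and none higher outside the time course, with a median of -0.92. Etv4 was at 6.36 and 7.83 FPKM against 33.3 and 30.3 FPKM (log2 difference -2.16, SE 0.29, adjusted p = 9.36e-07), Etv5 at 8.62 and 9.81 FPKM against 25.9 and 25.6 FPKM (log2 difference -1.48) and Dusp6, a phosphatase of ERK, at 22.1 and 24.9 FPKM against 45.9 and 45.7 FPKM (log2 difference -0.96). Of 11 tested Wnt targets, 5 were lower and 1 higher. Lef1, the nuclear partner of β-catenin, was at 8.07 and 9.61 FPKM against 28.9 and 33.2 FPKM (log2 difference -1.80, SE 0.16, adjusted p = 6.55e-10), whereas Axin2 was not called (log2 difference -0.31) and Znrf3 was slightly higher (log2 difference 0.48, adjusted p = 0.00458). After scaling to equal sums, 7 of the FGF and ERK targets and 5 of the Wnt targets were called lower.

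Other pathways were mixed. Of 11 retinoic acid genes tested, 5 were lower and 1 higher. Rarg, a receptor enriched in the tail bud, was at 6.91 and 8.23 FPKM against 29.6 and 29.1 FPKM (log2 difference -1.94, SE 0.29, adjusted p = 4.01e-06), Crabp1, a binding protein of the neural tube, was higher at 248.3 and 226.1 FPKM against 140.9 and 132.0 FPKM (log2 difference 0.80, adjusted p = 0.00421), and the enzymes Cyp26a1 and Aldh1a2 were not called (log2 differences 0.13 and -0.48). Of 18 BMP and TGF-beta targets, 7 were lower and none higher, among them Msx1 (2.18 and 2.25 FPKM against 9.51 and 9.34 FPKM, log2 difference -2.04). Of the 18, 5 passed the filter only through the time course and 1 only through the pair outside it, which fixed their direction. After scaling to equal sums, 1 retinoic acid gene and 2 BMP and TGF-beta targets were still called lower. Hedgehog targets (1 higher and 1 lower of 11) and Notch targets (2 higher and 3 lower of 14) compare with 14.4% higher and 16.2% lower among all genes tested, and after scaling to equal sums 2 Hedgehog targets were higher and none lower and 2 Notch targets were higher and 1 lower.

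Several neural genes were higher outside the time course. Of 27 genes of spinal cord progenitors, 17 were tested, and 8 were higher and none lower, with a median of 0.68. Of the 17, 3 passed the filter only through the pair outside the time course. These had to be higher, which limits what the count and median show. Olig2, which marks motor neuron progenitors, was at 19.1 and 14.7 FPKM against 5.13 and 5.14 FPKM (log2 difference 1.69, SE 0.57, adjusted p = 0.0222), and Pax6 at 26.4 and 25.3 FPKM against 9.40 and 10.7 FPKM (log2 difference 1.35, SE 0.47, adjusted p = 0.0261). Neurog2, a proneural factor, was at 14.4 and 10.9 FPKM against 3.82 and 3.16 FPKM (log2 difference 1.83, SE 0.46, adjusted p = 0.00287). Dbx1, of the interneuron domain, was at 26.6 and 25.8 FPKM against 5.597 and 8.07 FPKM (log2 difference 1.948, SE 0.65, adjusted p = 0.0206), and the Notch effector Hes5 at 27.5 and 23.5 FPKM against 7.43 and 8.15 FPKM (log2 difference 1.69, SE 0.49, adjusted p = 0.00846). General markers of the neural tube differed little, with Sox3 at 25.5 and 22.6 FPKM against 22.2 and 23.8 FPKM.

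Of 28 genes of postmitotic neurons, 15 were tested, and 8 were higher and none lower, with a median of 1.05. Of the 15, 4 passed the filter only through the pair outside the time course. These had to be higher, which limits what the count and median show. Neurod4 was at 8.12 and 7.02 FPKM against 2.204 and 1.80 FPKM (log2 difference 1.87, SE 0.22, adjusted p = 1.14e-07), and Elavl3, an RNA-binding protein of young neurons, at 4.27 and 3.53 FPKM against 0.904 and 0.877 FPKM (log2 difference 2.01, SE 0.37, adjusted p = 8.90e-05). Stmn2 was at 4.88 and 3.94 FPKM against 1.76 and 1.39 FPKM (log2 difference 1.43, adjusted p = 0.00529). Tubb3, an abundant tubulin of neurons, was at 34.2 and 24.7 FPKM against 21.9 and 15.1 FPKM and was not called (adjusted p = 0.183). Nhlh1, a factor of newly born neurons outside the list, was among the 10 largest rises of genes above 0 in all 4 libraries (6.14 and 4.80 FPKM against 1.17 and 1.10 FPKM, log2 difference 2.17), a rule set after the values were seen. The calls of Pax6 and Olig2 were lost without any 1 of the 4 libraries (adjusted p from 0.0761 to 0.127 and from 0.0595 to 0.131), and that of Dbx1 without any 1 but replicate 2 of the time course (adjusted p from 0.0859 to 0.139). That of Hes5 was lost without replicate 1 of either pair (adjusted p of 0.0564 and 0.0623). That of Stmn2 was lost without replicate 1 outside or replicate 2 of the time course (adjusted p of 0.0569 and 0.0613). With 1 library left out, 2 to 4 of the 17 progenitor genes and 4 to 7 of the 15 neuronal genes were called higher.

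**Figure D3:**
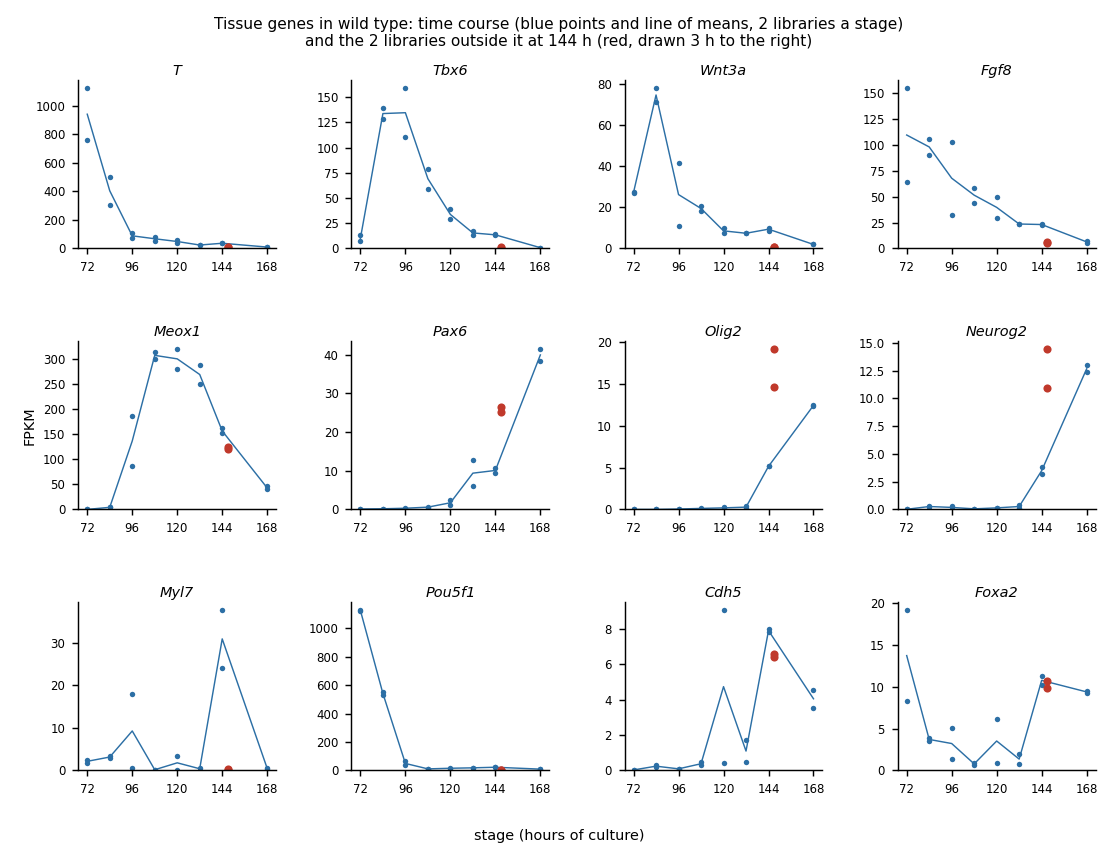
FPKM of 12 tissue genes (one panel each) against stage in hours, with every time-course library as a blue point, the blue line through the means and the 2 libraries outside the time course at 144 h in red. The red points of T, Tbx6, Wnt3a and Fgf8 lie near or below the time course at 168 h, those of Olig2 and Neurog2 above the time course at 144 h, and those of Myl7 near 0 while the time course at 144 h is at 24.1 and 37.7 FPKM.

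Contractile genes of the heart were lower outside the time course, and Myl7 and Myl4 had the most negative differences of all called genes above 0 in all 4 libraries. Of 13 cardiac genes tested, 9 were lower (7 after scaling to equal sums) and 1 (Isl1) was higher, with a median of -2.09. Of the 13, 5 passed the filter only through the time course and so had to be lower. Neither the count nor the median by itself supports a change of the list. Myl7, an atrial myosin light chain, was at 0.184 and 0.217 FPKM outside the time course, below the 0.327 FPKM that 3 fragments would give, and at 24.1 and 37.7 FPKM in it. The 4 fragments behind it in both libraries put the ratio of the mean FPKM, without the added 0.1, at 154, with a 95% counting interval from 60.3 to 567. Myl4 was at 0.651 and 0.584 FPKM against 17.6 and 33.1 FPKM (log2 difference -5.08, SE 0.49, adjusted p = 2.74e-09), and the troponin Tnnt2 at 1.48 and 1.09 FPKM against 12.5 and 19.7 FPKM (log2 difference -3.53, SE 0.53, adjusted p = 5.26e-06).

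The smooth muscle actin Acta2, which early heart muscle also expresses, was lower too (1.45 and 1.91 FPKM against 13.2 and 19.9 FPKM, log2 difference -3.21, adjusted p = 1.68e-07). Transcription factors of the heart field were low in both pairs. Nkx2-5 was at 0.173 and 0.0682 FPKM against 0.756 and 0.586 FPKM and Tbx5 at 0.0762 and 0.0615 FPKM against 0.377 and 0.404 FPKM, below the filter, and Gata4 and Mef2c were not called (log2 differences -0.01 and 0.14). In the time course itself Myl7 was at 0.645 and 0.130 FPKM at 132 h and at 0.679 and 0.264 FPKM at 168 h, so that among these stages the high level stood in the 144 h libraries only. Hand2, at 0.971 and 3.68 FPKM in the time course, was called (adjusted p = 0.0442), but not without replicate 1 or 2 outside the time course or replicate 2 in it (adjusted p from 0.0773 to 0.425).

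Several genes of pluripotent cells were lower outside the time course. Of 12 tested, 11 were lower, but 9 of the 12 passed the filter only through the time course and so had to be lower, and neither this count nor the median of -2.94 supports a change of the list. Of the other 3, Pou5f1 and Dppa5a were lower and Klf4 was not called. Pou5f1 (Oct4) was at 1.25 and 3.30 FPKM against 23.8 and 20.8 FPKM (log2 difference -3.38, SE 0.61, adjusted p = 7.70e-05). Dppa5a was at 3.37 and 6.11 FPKM against 73.1 and 65.4 FPKM (log2 difference -3.90, SE 0.81, adjusted p = 0.000362), and Nanog at 0.192 and 0.380 FPKM against 4.18 and 4.71 FPKM (log2 difference -3.598, SE 0.75, adjusted p = 0.000401). Klf4, which somatic cells express as well, was at 1.66 and 1.43 FPKM against 1.27 and 1.51 FPKM. Zfp42 and Esrrb were also called lower, but not without any 1 of the 4 libraries (adjusted p from 0.0507 to 0.185), and 7 or 8 of the 12 genes were called lower when 1 library was left out. Part of this list is shared with primordial germ cells, of which 2 of 5 tested genes were lower (Pou5f1 and Tfap2c).

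The endothelial and gut lists had lower shares of called genes than the table as a whole in this fit. None of the 17 endothelial genes tested was called, at a median of -0.01 and a range from -0.55 to 0.81, and 1 had an unadjusted p under 0.05. With the 4 libraries alone in the fit 4 were higher and 3 lower, and with the 144 h libraries alone 1 was higher and 2 were lower. Cdh5 (VE-cadherin) was at 6.56 and 6.3998 FPKM against 8.001 and 7.80 FPKM (log2 difference -0.28, 95% interval -1.70 to 1.14) and Pecam1 at 4.59 and 4.34 FPKM against 4.40 and 4.63 FPKM (log2 difference -0.02, 95% interval -1.48 to 1.45). Of 17 gut endoderm genes, 2 were lower, Trh (8.47 and 11.1 FPKM against 70.1 and 67.1 FPKM, log2 difference -2.81, adjusted p = 0.00399) and Cdx2. The endoderm and floor plate factor Foxa2 was at 10.7 and 9.81 FPKM against 11.3 and 10.2 FPKM (95% interval of the log2 difference -1.46 to 1.33). These intervals include differences of more than 2-fold.

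Of 18 somite genes tested, 2 were lower, Foxc1 and Foxc2 (log2 differences -0.75 and -0.99), calls that were lost without any 1 of the 4 libraries (adjusted p from 0.0548 to 0.114). The median of the somite list was -0.53, 17 of its 18 differences were negative. No call was left after scaling to equal sums, whereas 11 of the 18 genes were lower in the fits of the 4 libraries alone and of the 144 h libraries alone. Meox1, of the whole early somite, was at 125.1 and 119.9 FPKM against 161.01 and 151.2 FPKM (log2 difference -0.35, 95% interval -1.06 to 0.36), and Pax1, of the sclerotome, at 39.9 and 35.7 FPKM against 56.8 and 48.6 FPKM (log2 difference -0.48, 95% interval -1.17 to 0.22). Extraembryonic endoderm gave no call among 5 genes tested, floor plate and notochord 1 (Ptch1, higher, lost without any 1 library) among 7, surface ectoderm 2 lower (Tfap2c and Grhl3) among 5 and mesenchyme and matrix 1 higher and 3 lower among 19. Of the 5 surface ectoderm genes, 2 passed the filter only through the time course and so had to be lower. Of the 7 floor plate and notochord genes, 1 passed only through the time course and 1 only through the other pair. Among all genes tested, 14.4% were called higher and 16.2% lower. No blood gene passed the filter.

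**Figure D4:**
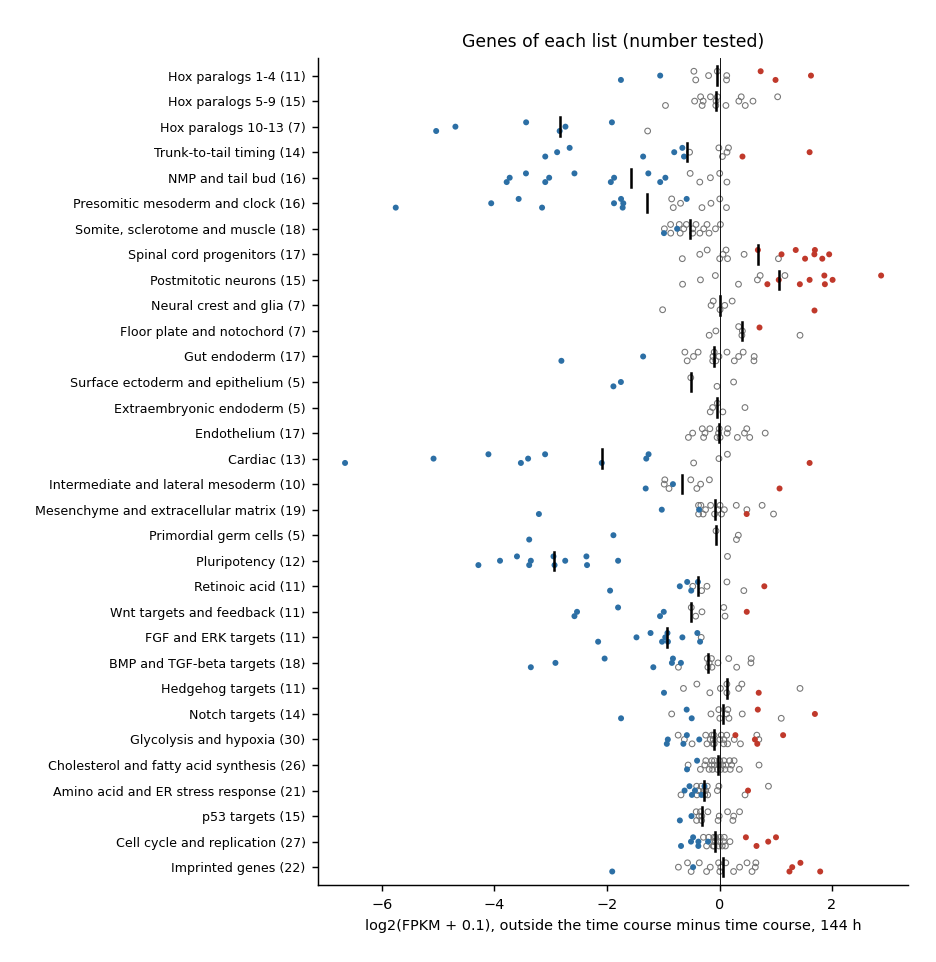
Log2 difference, outside the time course minus time course, of each tested gene, by gene list (lists with 5 or more genes tested), with the number tested beside each name. Filled points are called genes (red higher, blue lower), open points are genes not called and the black bars are list medians, for example -1.57 for progenitor genes and 0.68 for spinal cord progenitors. Genes that passed the filter through 1 pair only are included.

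Among growth genes, the cell cycle list held 4 higher and 6 lower genes of 27, against 14.4% and 16.2% of all genes tested. Ccnd2, a cyclin of neural progenitors, was at 206.7 and 205.8 FPKM against 114.1 and 112.3 FPKM (log2 difference 0.87, adjusted p = 0.00199), while Ccnd1 was at 87.5 and 93.98 FPKM against 146.8 and 144.6 FPKM (log2 difference -0.68, adjusted p = 9.79e-06). Genes of glycolysis and hypoxia were called at the shares of all genes (4 higher and 5 lower of 30, against 14.4% and 16.2%), with Vegfa higher (35.5 and 35.3 FPKM against 16.3 and 16.0 FPKM, log2 difference 1.13) and the glucose transporter Slc2a3 lower (58.1 and 68.7 FPKM against 124.2 and 117.7 FPKM, log2 difference -0.94). Of 22 imprinted genes, 4 were higher and 2 lower, against 14.4% and 16.2% of all genes tested, and no change of the list is read from these counts. Of the 22, 1 passed the filter only through the time course and 1 only through the other pair, which fixed their direction. The 3 noncoding RNAs of the Dlk1-Dio3 region were all higher, with Meg3 at 168.7 and 161.1 FPKM against 47.6 and 47.7 FPKM (log2 difference 1.79, adjusted p = 0.0342, lost without any 1 of the 4 libraries at adjusted p from 0.116 to 0.121) and Mirg at 60.4 and 64.2 FPKM against 22.6 and 23.2 FPKM (log2 difference 1.44, adjusted p = 0.00822, 0.0571 without replicate 2 outside the time course). Cholesterol synthesis held 2 lower genes of 26, p53 targets 2 of 15, amino acid and ER stress genes 6 of 21 (with 1 higher) and immediate early and heat shock genes 4 of 15. The shares of the last 2 lists exceeded the 16.2% of all genes that were lower. However, 3 of the 15 immediate early and heat shock genes passed the filter only through the time course and 1 only through the other pair, which fixed their direction. The same held for 1 amino acid and ER stress gene, through the time course. These counts do not by themselves support a change of the lists. After scaling to equal sums 1 gene was called lower among all 4 lists and 1 in the cell cycle list.

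Several mitochondrially encoded mRNAs differed beside these groups. Of 11 tested, 7 were lower outside the time course and none higher, with 3 lower after scaling to equal sums and 2 to 7 when 1 library was left out. Of the 11, 3 passed the filter only through the time course and so had to be lower, which limits what the count shows, and 16.2% of all genes tested were called lower. mt-Nd1 was at 1520 and 1934 FPKM against 3071 and 4200.5 FPKM (log2 difference -1.07, adjusted p = 0.0141), while mt-Co2 and mt-Co3 were near 1 FPKM in all 4 libraries. RNA of the mitochondrial genome made up 1.23% and 2.07% of the summed FPKM outside the time course and 3.35% and 4.14% in it. Its part in the other differences was not tested.

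The time course gives the levels of neighbouring stages as a scale, and the tissues did not fall at 1 point on it. The distance here is the root mean square log2 difference over the genes of a list between a library and the mean of a stage. Genes that passed the filter only through the time course are included, and these had to be lower outside it. Over paralogs 10 to 13 both libraries outside the time course were nearest to 120 h (distances 0.864 and 1.20), and their distances to 144 h were 3.40 and 3.38. Over the progenitor list they were nearest to 168 h (1.02 and 0.772, against 2.36 and 2.03 to 144 h), and so they were over the presomitic list (0.762 and 0.991, against 2.33 and 2.37), the trunk-to-tail list and the FGF and ERK targets. Over the endothelial list they were nearest to 144 h (0.387 and 0.381). In the same genes of paralogs 10 to 13 the time-course libraries at 120 h differed widely, with Hoxc10 at 1.81 and 25.2 FPKM, so that this stage is not a sharp mark.

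On a line from the mean of 132 h (0) to the mean of 168 h (1) of the time course, over the 1000 tested genes that changed most between these stages, the libraries outside the time course lay at 0.581 and 0.600 and those of the time course at 0.535 and 0.468. The means were 0.591 ± 0.0135 and 0.502 ± 0.0475 (SD, n = 2), and the smallest p that an exact permutation test of 2 against 2 libraries allows is 0.333. By list, the positions of the libraries outside the time course were 1.497 and 1.25 for progenitor genes, 1.00 and 1.01 for presomitic genes, 0.793 and 0.737 for spinal cord progenitors and -0.948 and -0.884 for paralogs 10 to 13. Those of the time course were -0.0789 and -0.0837, 0.193 and 0.180, 0.465 and 0.486, and 0.772 and 0.645 in the same order. By these positions tail bud genes lay later, and posterior Hox genes earlier, than in the time course of the same stage. However, 3 of the 16 progenitor genes, 5 of the 16 presomitic genes and 4 of the 7 posterior Hox genes passed the filter only through the time course. These had to be lower outside it, so the positions and distances do not by themselves support a shift of these lists. For neural genes the distances were less clear, since over spinal cord progenitors replicate 1 was about as near to 168 h (1.15) as to 144 h (1.18) and replicate 2 nearer to 144 h (1.03 against 1.22), and over neurons replicate 2 was about as near to 144 h (1.30) as to 168 h (1.31).

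**Figure D5:**
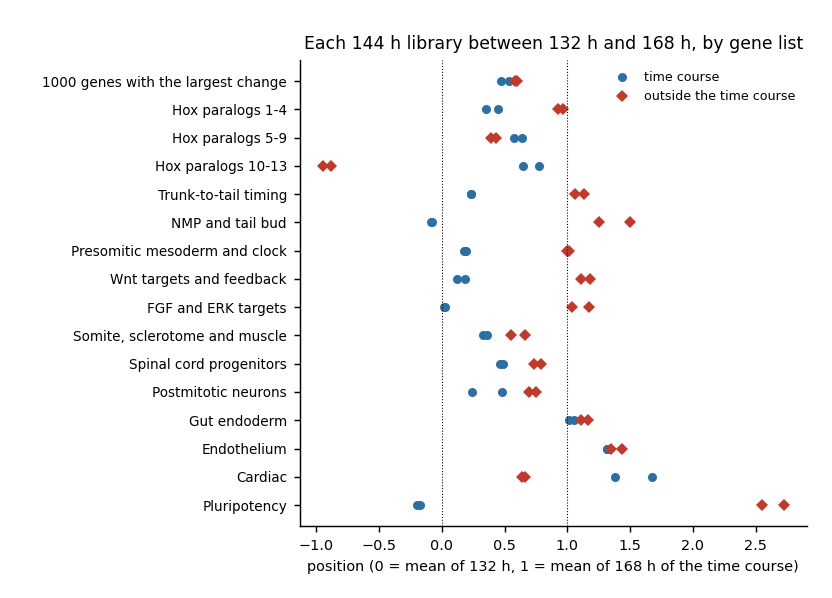
Position of each 144 h library on the line from the mean of 132 h (0) to the mean of 168 h (1) of the time course, over the 1000 genes with the largest change and by gene list. Red diamonds are the libraries outside the time course and blue circles those in it, and the red points run from -0.948 for paralogs 10 to 13 to 2.72 for pluripotency genes while they lie near the blue ones over the 1000 genes. Genes that passed the filter through 1 pair only are included, among them 9 of the 12 pluripotency genes and 4 of the 7 genes of paralogs 10 to 13.

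At 120 h wild type was also profiled in both series, with 4 libraries outside the time course and 2 in it, which bears on whether the differences at 144 h hold at an earlier stage. At 120 h, 723 genes (5.83%) were higher and 2238 (18.1%) lower outside the time course. The difference at 144 h minus that at 120 h was above 0 in 1650 genes (13.3%) and below 0 in 739 (5.96%) by an interaction contrast in the same limma fit. Tbx6 was lower outside the time course at 120 h too (log2 difference -1.23, adjusted p = 0.00273), and its difference was larger at 144 h by -2.83 (SE 0.45, adjusted p = 5.00e-05). Wnt3a (-1.01 at 120 h, adjusted p = 0.0180) and T (-0.72, adjusted p = 0.0228) were lower at 120 h and lower still at 144 h, by -2.72 (adjusted p = 0.000184) and -1.15 (adjusted p = 0.0221). Hoxc10 was not called at 120 h (0.28, adjusted p = 0.720), where its time-course libraries were far apart, at 1.81 and 25.2 FPKM. Its difference between the stages by the interaction contrast, which rests on that pair, was -2.19 (adjusted p = 0.0265). Pax6 was not called by this test (0.37, adjusted p = 0.730), and its value turned to -1.30 (adjusted p = 0.102) with replicate 4 as the only 120 h library outside the time course. At 96 h, the other stage profiled in both series, T (-0.02, adjusted p = 0.973), Wnt3a (0.13, adjusted p = 0.802) and Tbx6 (0.33, adjusted p = 0.436) were not called.

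The libraries of replicates 1 to 3 outside the time course at 120 h differ from replicate 4 in summed FPKM (608035 to 617304 against 480197). With replicate 4 alone, Tbx6, Wnt3a, Cdx1, Pou5f1 and Dppa5a kept their interaction (adjusted p from 0.000478 to 0.0184), and T, Hoxc10 and Fgf8 lost it (adjusted p of 0.0673, 0.124 and 0.162).

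The calls made in mutants of this stage differed with the wild-type pair taken as control. Del(CBS4) stembryos, which lack a CTCF site of the HoxD cluster and derive from the same cell line, and Del(CBS1-5) stembryos, which lack 5 such sites and derive from blastocysts of mutant mice, have 2 libraries each at 144 h outside the time course. Del(CBS4) gave 214 genes higher (1.73%) and 136 lower (1.1%) against the wild type outside the time course, and 1636 higher (13.2%) and 1637 lower (13.2%) against that of the time course. The comparisons share the mutant libraries. Hoxd11 in Del(CBS4), at 1.43 and 1.10 FPKM, was higher than the pair outside the time course (log2 difference 2.68, SE 0.30, adjusted p = 8.47e-07) and lower than the time course (log2 difference -2.35, SE 0.30, adjusted p = 7.36e-07).

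Del(CBS1-5) gave 1958 genes higher (15.8%) and 1358 lower (11%) against the pair outside the time course, and 2733 higher (22%) and 2281 lower (18.4%) against the time course. In Del(CBS1-5), Hoxd13 at 3.28 and 3.06 FPKM was higher than the pair outside the time course (log2 difference 3.17, SE 0.29, adjusted p = 2.70e-10) and was not called against the time course (log2 difference 0.33, SE 0.29, adjusted p = 0.390). Hoxd10, at 9.37 and 9.28 FPKM, was likewise higher than the first (log2 difference 2.61, adjusted p = 3.43e-05) and not called against the second (log2 difference -0.12, adjusted p = 0.862). T in Del(CBS4), at 12.1 and 8.88 FPKM, was not called against the pair outside the time course (log2 difference 0.07, adjusted p = 0.970) and was lower than the time course (log2 difference -1.81, adjusted p = 8.56e-06).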

How the data were processed

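The 4 wild-type libraries at 144 h were compared within a table of 61 libraries from pooled stembryos. The authors made stranded poly-A libraries, sequenced them as 75-base paired reads, trimmed them with cutadapt 1.16, mapped them with STAR 2.7.7a to mm10 using a gene model built from Ensembl 102, and computed the deposited FPKM values from uniquely mapped reads with Cufflinks 2.2.1. FPKM are not counts, and relative abundance within a library is all they hold. The authors also scaled Hoxd genes other than Hoxd13 in mutant lines by Hoxa and Hoxc genes, by a formula not given in the sources used here, so that mutant Hoxd values may be on another scale than wild type. The series table and the 61 library tables of Cufflinks estimates held the same values, in mutants and wild type alike. The Hoxd values used here are therefore without that scaling, and mutant differences may depart from those the paper plots.

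Here values were taken to log2(FPKM + 0.1) and 1 coefficient per group (28 groups, 33 residual degrees of freedom) was fitted with limma 3.58.1 in R 4.3.3 over all libraries, for the 12395 genes with a mean of at least 1 FPKM in either 144 h pair. P-values were adjusted by Benjamini-Hochberg over these genes, and a gene was called under 0.05. Tests are two-sided. Depth was inferred from the smallest steps between values of low genes, of which 97.2% to 98.0% came out as whole fragments (tolerance 0.02), in the 4 libraries, and limits of 3 fragments rest on it and cover counting error only. Intervals are 95% intervals of the fit.

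Groups came from the titles. The members and gene lists were chosen with earlier results of these data known, and no test was made over a list. Named genes were the 10 largest called differences in each direction (protein-coding, pairs not overlapping, at least 5 FPKM in the higher pair), up to 4 members per list and direction with the smallest adjusted p plus members needed to describe a list, all Hox genes tested and all trunk-to-tail genes, with quality lists given by counts and levels. Since the first part named only genes listed at 0 in a pair, it was repeated for genes above 0 in all 4 libraries. Distances to stages and the shift of Hoxd genes were also added after the data were seen. On simulated data with 200 changed genes of 12395, the fit recovered 79% of those changed by 1 and 88% of those changed by 2 on the log2 scale, and 4.57% of its calls were false. The simulated noise was independent between libraries, with the same spread in every group, and no other gene differed between the pairs. These shares hold under those settings only and do not estimate false calls in the real comparison. Columns of other measures were not used.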

Additional observations from a re-analysis of the deposited data

Results flagged for a closer look

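The difference between the libraries outside and inside the time course was not the same at 144 h and at 120 h in 8 genes described above, by the interaction contrast of limma. The difference at 144 h minus that at 120 h was -4.25 for Dppa5a (adjusted p = 0.00536), -3.04 for Pou5f1 (adjusted p = 0.00826), -2.83 for Tbx6 (adjusted p = 5.00e-05) and -2.72 for Wnt3a (adjusted p = 0.000184) on the log2 scale. It was -2.41 for Cdx1 (adjusted p = 9.12e-05), -2.19 for Hoxc10 (adjusted p = 0.0265), -1.47 for Fgf8 (adjusted p = 0.0236) and -1.15 for T (adjusted p = 0.0221). For Hoxc10 the time-course libraries at 120 h were far apart, at 1.81 and 25.2 FPKM, which limits its value. With replicate 4 as the only 120 h library outside the time course, the adjusted p of Hoxc10, Fgf8 and T rose to 0.124, 0.162 and 0.0673.

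Among 4 libraries of wild type at 120 h that are not part of the time course, a library stood far from the others in each of 4 genes, though not always the same library. For a gene fixed beforehand, chance alone gives such a distance in about 1 of 20 groups. These 4 genes are given because they passed that mark, so the rate does not apply to them as a set. Replicate 3 held 58.6 FPKM of Pou5f1, where the others held 4.92 to 13.4 FPKM, and 238.8 FPKM of Dppa5a, where the others held 26.9 to 40.2 FPKM. Replicate 4 held 10.6 FPKM of Pax6 against 1.87 to 2.44 FPKM, and 4.93 FPKM of Hoxd9 against 11.99 to 12.7 FPKM.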

How the results depend on the processing

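The main counts were 1781 genes higher and 2009 lower outside the time course. Without the filter on low values 3793 genes were higher, with wild-type libraries alone 1068 were higher and 983 lower, and with 144 h libraries alone 3105 were lower. Scaling to equal summed FPKM left 541 lower genes. Leaving out 1 of the 4 libraries gave 1044 to 1352 higher and 1187 to 1261 lower genes, the lone library being assumed to vary like other groups. The interaction with 120 h, 2389 genes, gave 1227 to 1615 when 1 of the 4 libraries was left out and 1758 with replicate 4 as the only 120 h library outside the time course. With the replicate number as a block, 1768 genes were higher and 1983 lower, and 541 and 398 in a fit of the 4 libraries alone with the replicate block; libraries with the same number did not deviate together (r = -0.0305 across genes), so the samples share only a number. The mean position between 132 h and 168 h of the pair outside the time course was 0.574 over 500 genes and 0.557 with a pseudocount of 1 FPKM, which gave 0.422 for the time course.

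Of 152 named genes that were called, 142 stayed called with a pseudocount of 0.01 FPKM, 148 with 1 FPKM, 122 after scaling to equal sums, 100 with wild-type libraries alone and 109 to 118 when 1 library was left out, and none changed direction in any setting run. With a pseudocount of 0.01 FPKM, Hoxc10, Hoxd3, Hoxb4, Olig2, Neurog2, Dbx1, Nhlh1, Neurog1, Ret and Hand2 were no longer called. Depth limits genes near 0: at 15.0 M to 25.4 M fragments, levels such as those of Hoxd11, Hoxc11 and Myl7 outside the time course rest on few fragments, and the causes of these changes were not tested.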
